A study of Mus musculus with 78 samples.

Results

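The small RNA pathway genes followed here are 10 members: the Argonautes Ago1, Ago2, Ago3 and Ago4, and Drosha, Dgcr8, Xpo5, Dicer1, Tarbp2 and Lin28a. They were chosen by Entrez gene number, and all 10 were listed in both gene tables, which hold 15218 genes at the 4-cell stage and 15342 at the 8-cell stage, with 13604 genes in common. Values are FPKM (fragment counts divided by transcript length and by the library's total) from Smart-seq2 libraries of single mouse blastomeres, 24 from 4-cell and 26 from 8-cell embryos. The embryos carried the Brainbow 2.1 cassette and a tamoxifen-inducible Cre (CAG-cre/Esr1*), were treated with 4-hydroxytamoxifen as 2-cell embryos and were then cultured in KSOM, and both stages share this genotype and treatment. In the sample labels, 24 of 36 4-cell blastomeres and 26 of 31 8-cell blastomeres have a lineage, from 6 and 4 embryos.

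No column of the tables names a single embryo, cell or lineage, and 5 of the 8-cell columns are named NA. Columns could not be assigned to embryos from the labels, so each stage was treated as 1 sample and the stages are compared by their values, without a test. The spread given is that between blastomeres, which share embryos. The fragments behind the FPKM denominator, read from the values themselves, were 6870000 to 16860000 per 4-cell blastomere and 2330000 to 21730000 per 8-cell blastomere, rounded. Of the blastomeres, 3 at each stage had fewer than 5000 genes above an FPKM of 1, and they are called gene-poor below. Of 8 blastomere and maternal markers, 7 exceeded an FPKM of 1 in 50% or more of the 4-cell and 6 in 50% or more of the 8-cell blastomeres. Dppa3, a maternal and pluripotency factor, had median FPKMs of 3658 and 3260. The exceptions, of the subcortical maternal complex, were Ooep at both stages (medians of 0.645 and 0) and Nlrp5 at the 8-cell stage (5.06 and 0.122). Of 8 cumulus and granulosa cell markers, Amhr2 alone exceeded an FPKM of 1 in 50% or more of a stage's blastomeres, with medians of 36.6 and 41.5. The summed level of the list ran from 9.03 to 104 FPKM and from 3.65 to 111 FPKM. Of 6 blood and endothelial markers Pecam1, which is also known in the inner cell mass, alone reached this, with medians of 50.8 and 22.8, and the summed level of that list ran from 2.25 to 168 FPKM and from 0 to 80.0 FPKM. Whether such cells have a part in the members' values was not tested.

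MicroRNAs are made from long primary transcripts. In the nucleus the Microprocessor, formed by the RNase III enzyme Drosha and its RNA-binding partner Dgcr8, releases a hairpin, which Exportin 5 (Xpo5) carries to the cytoplasm. There Dicer1, with the double-stranded RNA-binding protein Tarbp2, cuts it into a duplex, and an Argonaute keeps a strand of the duplex as the guide to its target RNAs. Ago2 is the Argonaute known to cut a fully paired target. Lin28a binds precursors of the let-7 microRNAs and blocks their maturation. In mouse oocytes Dicer1 also makes endogenous siRNAs, and microRNA activity there is known to be low. The libraries start from polyadenylated RNA, so they measure the mRNAs of the machinery and not mature microRNAs.

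The Argonautes are close paralogs, and the authors kept only uniquely aligned reads, so the sequences bear on how well the 4 genes can be told apart. Ago3, Ago1 and Ago4 are neighbours on the minus strand of chromosome 4 (GRCm38.p6, chr4:126326994-126431670, chr4:126435012-126468707 and chr4:126489487-126533586), and Ago2 is on the minus strand of chromosome 15 (chr15:73101625-73184947). Aligned over the coding sequence, the pairs were 71.6% (Ago2 and Ago3) to 75.5% (Ago1 and Ago2) identical. The longest run shared exactly was 170 bases for Ago1 and Ago3, within a coding exon of 185 bases that is exon 12 by coding order in each gene, and at most 53 bases for the other 5 pairs. It is shown here because a read of 100 bases that lies inside it fits both genes equally. RefSeq bases of GRCm38.p6 are given 5′ to 3′, and capitals mark the 49 of the 170 positions at which the 4 genes are not all the same.
Ago1: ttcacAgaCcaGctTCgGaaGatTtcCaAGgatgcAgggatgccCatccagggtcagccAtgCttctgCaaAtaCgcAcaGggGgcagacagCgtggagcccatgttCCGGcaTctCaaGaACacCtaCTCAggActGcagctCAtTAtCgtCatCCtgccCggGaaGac
Ago2: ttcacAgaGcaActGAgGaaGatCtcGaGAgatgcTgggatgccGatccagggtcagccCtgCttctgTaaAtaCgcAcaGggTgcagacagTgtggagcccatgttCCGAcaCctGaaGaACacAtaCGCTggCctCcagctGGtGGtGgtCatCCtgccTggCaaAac
Ago3: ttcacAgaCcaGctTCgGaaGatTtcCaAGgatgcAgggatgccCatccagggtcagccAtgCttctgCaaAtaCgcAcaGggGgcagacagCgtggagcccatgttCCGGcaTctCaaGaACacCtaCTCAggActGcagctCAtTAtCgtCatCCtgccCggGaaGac
Ago4: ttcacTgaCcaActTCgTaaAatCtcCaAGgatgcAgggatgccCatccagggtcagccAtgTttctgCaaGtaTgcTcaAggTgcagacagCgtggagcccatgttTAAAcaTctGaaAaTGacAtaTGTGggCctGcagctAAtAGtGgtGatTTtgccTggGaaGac
These are chr4:126448778-126448947 for Ago1, chr15:73121075-73121244 for Ago2, chr4:126363657-126363826 for Ago3 and chr4:126509962-126510131 for Ago4. Over the run Ago2 differed from Ago1 and from Ago3 at 30 positions, and Ago4 differed from each of them at 33 positions. The run holds 71 words of 100 bases, which is 0.985% of the 7210 such words of the Ago1 transcript and 0.942% of the 7536 of Ago3. No word of 100 bases was shared in the coding sequence by any other pair of Argonautes.

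Exact copies elsewhere in the genome concerned 3 more members to a larger extent. Of the words of 100 bases in the Tarbp2 transcript, 47.4% also occurred on chromosome 6 (chr6:47431786-47433092), where the pseudogene Gm18584 is annotated, so a single read of 100 bases from that share of Tarbp2 has no unique place. The share was 6.76% for Dgcr8, with the copy on chromosome 3, and 6.63% for Lin28a, with the copy on chromosome 7. It was 0.996% for Ago2, whose copy on the X chromosome is the pseudogene Gm6088, and 0 for Ago4, Dicer1, Drosha and Xpo5. A mate outside the copy can still place a read pair. Dgcr8 also shares 23.1% of its exon bases with other annotated genes, among them Trmt2a on the opposite strand, and without strand information reads of the overlap cannot be told apart.

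Values of the members were mostly either above an FPKM of 1 or at 0. Of the 500 values of 10 genes in 50 blastomeres, 368 (73.6%) were above an FPKM of 1, the level at which the study calls a gene expressed, 84 (16.8%) were 0 and 48 (9.60%) lay between. A value of 0 means that no fragment was counted. As a bound from counting alone it was taken to allow up to 3 fragments. For these genes that is an FPKM of 0.0140 to 0.718 depending on the gene and the library, so each value of 0 was below 1 also at this bound. The bound does not cover transcripts lost before sequencing, so a value of 0 does not show that the mRNA was absent from the blastomere. For Ago2 an FPKM of 1 stood for 55.1 to 135 fragments at the 4-cell stage and for 18.7 to 174 at the 8-cell stage. Counting error alone would give Ago2 a coefficient of variation of 3.72% between 4-cell blastomeres, against 107% measured. Fragments carry no molecular identifiers and are not independent molecules, so this error covers counting only.

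**Figure D1:**
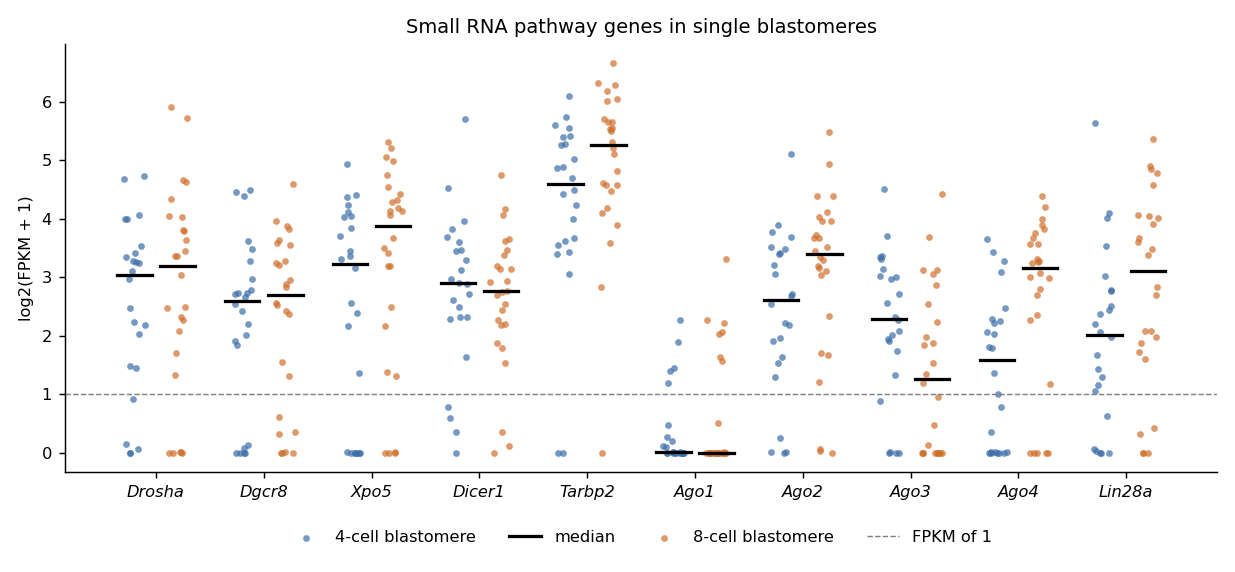
Level of each member, as log2(FPKM + 1), in each of 24 4-cell (blue) and 26 8-cell (orange) blastomeres, with the median as a black bar and an FPKM of 1 as a dashed line. Tarbp2 has the highest medians (FPKM of 23.3 and 37.1) and Ago1 the lowest (0.00908 and 0), and every member has blastomeres at 0 at both stages.

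Of the Microprocessor, Drosha (chr15:12824804-12935291, plus strand) ran from 0 to 25.5 FPKM at the 4-cell stage, with a median of 7.22, and was above 1 in 19 of 24 blastomeres. Among 8-cell blastomeres its values lay between 0 and 58.9, with a median of 8.22, and 21 of 26 were above 1. Its highest 8-cell values, 58.9 and 51.5, were both in gene-poor blastomeres, and the next was 24.2. Dgcr8 (chr16:18253948-18289251, minus strand) ran from 0 to 21.4 FPKM with a median of 5.07 at the 4-cell stage, and from 0 to 23.02 with a median of 5.55 at the 8-cell stage. It was above 1 in 18 of 24 and 19 of 26 blastomeres, and the stages overlapped over nearly their whole ranges. Drosha and Dgcr8 were both above 1 in 15 of 24 and 17 of 26 blastomeres, and both at or below 1 in 2 and 3.

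Xpo5 (chr17:46202811-46243598, plus strand), the exporter of the hairpins, ran from 0 to 29.7 FPKM with a median of 8.43 at the 4-cell stage and from 0 to 38.7 with a median of 13.7 at the 8-cell stage. It was at 0 in 6 of 24 and 3 of 26 blastomeres and above 1 in 17 and 22. The smallest Xpo5 values are those of 1 fragment on a length of 3688 bases, where the annotation used here has 5052, so its level relative to other genes may be set up to 1.37 times too high by the length. This does not touch the comparison of the stages.

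Dicer1 (chr12:104687740-104751968, minus strand) ran from 0 to 50.8 FPKM with a median of 6.46 at the 4-cell stage and from 0 to 25.8 with a median of 5.77 at the 8-cell stage. It was above 1 in 20 of 24 and 23 of 26 blastomeres. The highest 4-cell values, 50.8 and 21.96, were in the gene-poor blastomeres with 3699 and 3009 genes above an FPKM of 1. Tarbp2 (chr15:102516077-102523676, plus strand) had the highest level of the members at both stages. It was at 0 in 2 of 24 4-cell blastomeres and otherwise between 7.33 and 67.4 FPKM, with a median of 23.3. At the 8-cell stage it was at 0 in 1 of 26 and otherwise between 6.09 and 99.5, with a median of 37.1. No blastomere had a Tarbp2 value between 0 and 6.09. Dicer1 and Tarbp2 were both above 1 in 18 of 24 and 23 of 26 blastomeres.

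Lin28a (chr4:134003330-134019196, minus strand), the inhibitor of let-7 maturation, ran from 0 to 48.7 FPKM with a median of 3.06 at the 4-cell stage and from 0 to 39.9 with a median of 7.79 at the 8-cell stage. It was above 1 in 18 of 24 and 21 of 26 blastomeres. The 4-cell value of 48.7 was in the gene-poor blastomere with 3009 genes, and the next highest was 16.2. The 5 8-cell columns named NA had Lin28a values of 11.7 to 28.9, with a median of 22.8. Their names do not show whether these columns come from a single embryo. In the other 21 8-cell blastomeres the values lay between 0 and 39.9 around a median of 3.23, close to the 4-cell median.

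Among the Argonautes, Ago1 was the lowest at both stages. It was at 0 in 11 of 24 4-cell and 17 of 26 8-cell blastomeres, with highest values of 3.85 and 8.94 FPKM, and was above 1 in 5 and 7 blastomeres. Ago2 ran from 0 to 33.6 FPKM with a median of 5.14 at the 4-cell stage and from 0 to 43.4 with a median of 9.49 at the 8-cell stage, and was above 1 in 20 of 24 and 23 of 26. These are the highest medians of the Argonautes at each stage.

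Ago3 and Ago4, which lie on the same strand of chromosome 4 with Ago1 between them, had opposite differences. Ago3 ran from 0 to 21.7 FPKM with a median of 3.90 at the 4-cell stage and from 0 to 20.5 with a median of 1.41 at the 8-cell stage. It was at 0 in 3 of 24 and 9 of 26 blastomeres. Ago4 ran from 0 to 11.5 FPKM with a median of 2.03 at the 4-cell stage and from 0 to 19.99 with a median of 7.97 at the 8-cell stage. At the 8-cell stage Ago4 was either at 0, in 5 blastomeres, or above 1.25, in 21. The ranges of the stages overlapped for both genes. All but 3 of the 24 4-cell blastomeres were below the 8-cell median of Ago4, and 20 of the 26 8-cell blastomeres were above its 4-cell median.

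The intervals given here for shares of blastomeres treat blastomeres as independent, although they share embryos, and are a description with no comparison of the stages. As shares of blastomeres above an FPKM of 1, Ago3 went from 79.2% (exact 95% binomial interval 57.8% to 92.9%) at the 4-cell stage to 53.8% (33.4% to 73.4%) at the 8-cell stage. Ago4 went from 58.3% (36.6% to 77.9%) to 80.8% (60.6% to 93.4%). Ago2 had 83.3% (62.6% to 95.3%) and 88.5% (69.8% to 97.6%), and Ago1 20.8% (7.13% to 42.2%) and 26.9% (11.6% to 47.8%). Among the other members the shares lay between 70.8% (Xpo5) and 91.7% (Tarbp2) at the 4-cell stage and between 73.1% (Dgcr8) and 96.2% (Tarbp2) at the 8-cell stage. At each stage 9 of the 10 members, all but Ago1, exceeded 1 in 50% or more of the blastomeres, as did 45.2% and 41.2% of all listed genes.

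**Figure D2:**
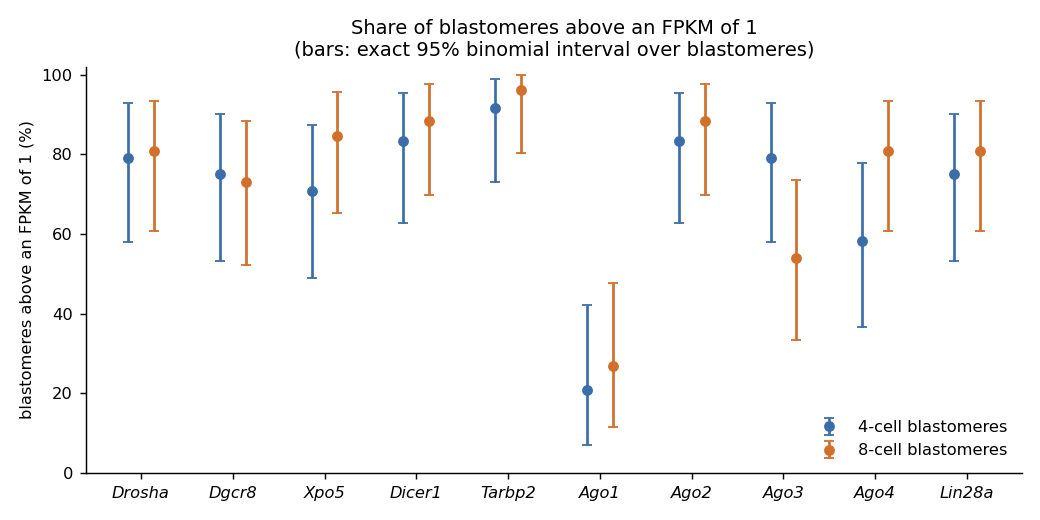
Percentage of blastomeres above an FPKM of 1 for each member at the 4-cell (blue, n = 24) and 8-cell (orange, n = 26) stage, with exact 95% binomial intervals that treat blastomeres as independent. Ago1 has the lowest shares, 20.8% and 26.9%, and Tarbp2 the highest, 91.7% and 96.2%.

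Within a blastomere, where levels per length can be set side by side, Ago2 was the highest of the 4 Argonautes in 13 of 24 4-cell and 17 of 26 8-cell blastomeres. Ago3 was the highest in 9 and 2, Ago4 in 2 and 7, and Ago1 in 0 and 0. Of the Argonaute FPKM summed over all blastomeres of a stage, Ago2 held 44.0% in 4-cell and 47.9% in 8-cell blastomeres, Ago3 34.02% and 13.997%, Ago4 18.6% and 33.6%, and Ago1 3.31% and 4.52%. The median share within a blastomere was 45.2% and 50.1% for Ago2 and 29.3% and 4.95% for Ago3. For Ago4 it was 14.7% and 27.8%, and for Ago1 0.201% and 0%. By pooled and by median share Ago3 and Ago4 changed places in the order, while Ago2 was first and Ago1 last at both stages.

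The order was not the same in every blastomere. At the 4-cell stage Ago2 was above Ago3 in 14 blastomeres and below it in 10, with a median within-blastomere difference of 0.37 in log2(FPKM + 1) and quartiles of -0.88 and 1.65, so these neighbours did not differ beyond their spread. At the 8-cell stage Ago2 was above Ago3 in 22, below in 3 and equal in 1, with a median difference of 2.07 and quartiles of 0.51 and 2.68. Ago2 was above Ago4 in 20 of 24 4-cell blastomeres (median difference 1.05, quartiles 0.18 and 1.69) and in 18 of 26 8-cell blastomeres (0.77, with quartiles of -0.52 and 1.64). Ago4 was above Ago3 in 8 of 24 4-cell blastomeres (median difference -0.51, quartiles -1.81 and 0.15). It was above Ago3 in 18 of 26 8-cell blastomeres (0.91, with quartiles of 0 and 3.24). The 4-cell quartiles of this pair thus lay on both sides of 0, and the lower 8-cell quartile was 0. Ago4 was above Ago1 in 14 of 24 and 19 of 26.

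The summed Argonaute level had a median of 14.9 FPKM at the 4-cell and 21.4 FPKM at the 8-cell stage, with ranges of 0.0251 to 41.5 and 1.31 to 62.9. A single 4-cell blastomere had no Argonaute above 1. It was not gene-poor, with 5336 genes above 1 and 15540000 fragments, and its values were 0.00911 for Ago1, 0.0160 for Ago2 and 0 for Ago3 and Ago4. In 3 4-cell and 4 8-cell blastomeres all 4 Argonautes were above 1. In 3 4-cell and 6 8-cell blastomeres a single Argonaute was, and 3 were above 1 in 9 and 11.

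**Figure D3:**
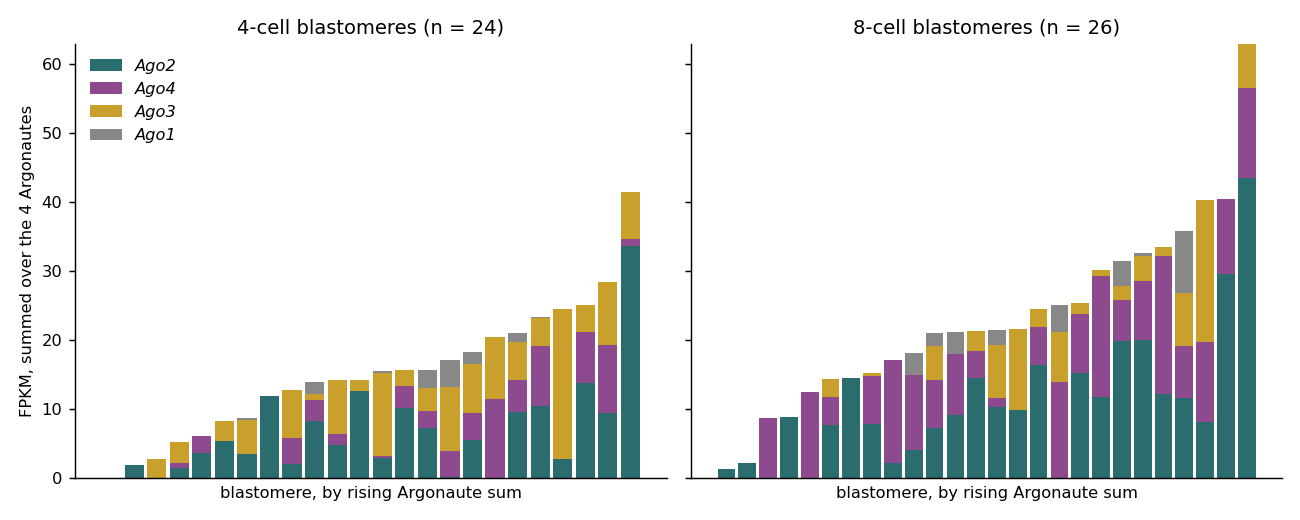
FPKM of the 4 Argonautes stacked in each blastomere, ordered by their sum, at the 4-cell (left, n = 24) and 8-cell (right, n = 26) stage. The sums run from 0.0251 to 41.5 and from 1.31 to 62.9 FPKM, and Ago3 (yellow) holds 34.02% of the 4-cell total but 13.997% of the 8-cell total, where Ago4 (purple) holds 33.6%.

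Set side by side over all members, the median FPKM at the 4-cell stage fell in the order Tarbp2, Xpo5, Drosha, Dicer1, Ago2, Dgcr8, Ago3, Lin28a, Ago4 and Ago1. No neighbours in that order had interquartile ranges that lay apart. At the 8-cell stage the order was Tarbp2, Xpo5, Ago2, Drosha, Ago4, Lin28a, Dicer1, Dgcr8, Ago3 and Ago1. There the quartiles of Tarbp2 (21.5 and 50.5 FPKM) lay above those of Xpo5 (3.80 and 20.01), and no other neighbours were apart. The place of Xpo5 at the 4-cell stage rests on its length. At the annotated length, an alternative chosen after seeing the data, its medians would be 6.15 and 10.03, below Drosha and Dicer1 at the 4-cell stage and still next to Tarbp2 at the 8-cell stage. Among all listed genes, ranked by median, Tarbp2 stood at the 81.4th and 86.3rd percentile. Ago1 stood at the 47.2nd at the 4-cell stage and has no rank of its own at the 8-cell stage, where its median of 0 is also the median over all listed genes. The other 8 members stood at the 58.9th to 70.7th percentile at the 4-cell stage and at the 60.6th to 76.5th at the 8-cell stage.

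The stage difference was taken as the difference of the medians of log2(FPKM + 1), 8-cell minus 4-cell, and a gene was counted past it at 1 or more in size. Of the 10 members 2 were higher at the 8-cell stage by this measure, Ago4 by 1.58 and Lin28a by 1.09, where 5.17% of the 13604 genes listed in both tables were. Ago3 was lower, at -1.03, where 9.67% of all genes were. As a ratio of median FPKM, 8-cell over 4-cell, these are 3.93 for Ago4, 2.55 for Lin28a and 0.361 for Ago3. Below the limit were Ago2 at 0.77, Tarbp2 at 0.65, Xpo5 at 0.63, Drosha at 0.16, Dgcr8 at 0.10, Ago1 at -0.01 and Dicer1 at -0.14. The median over the 10 members was 0.40, with 7 above 0, against a median of 0 over all genes, 26.8% of which were above 0. Many of those genes have a median of 0 at both stages, and among the 6514 genes above 1 in 50% or more of all blastomeres, which hold 9 of the members, 46.2% were above 0 with a median of -0.07. In that set 8.72% were higher by 1 or more and 14.3% were lower. With blastomeres scaled to a common median, 63.4% of all genes and 8 of the 10 members were above 0, and without the columns named NA 24.8% of all genes and 5 of the 10 members were.

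Ago4 was the member whose difference was past 1 under each alternative that was run, from 1.21 to 1.95. Lin28a was at 0.06 once the columns named NA were left out, and at 0.83 with means in place of medians. Ago3 stayed below 0, from -1.41 to -0.77, but was past -1 in only some settings. The signs of Drosha, Dgcr8, Dicer1 and Ago1 depended on the setting, with Drosha at -0.54 without the columns named NA. In these data fewer molecules of an mRNA in a blastomere cannot be told apart from a larger total of the other RNAs, since FPKM is a share of the library.

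**Figure D4:**
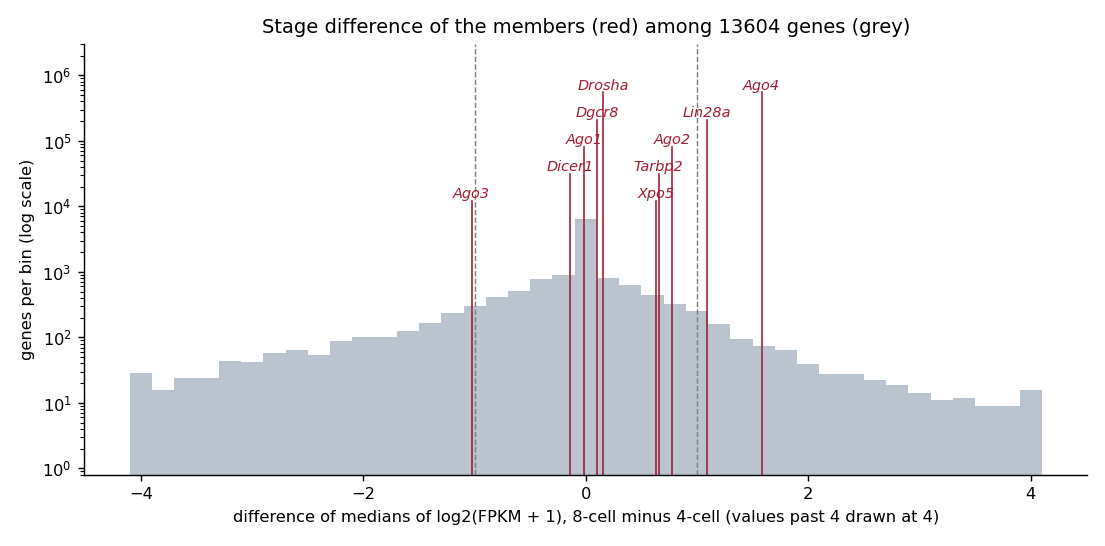
Number of genes (log axis) by difference of medians of log2(FPKM + 1), 8-cell minus 4-cell, for 13604 genes in grey, with each member as a red line and differences of 1 in either direction dashed. The height of the red lines has no meaning. Ago4 (1.58) and Lin28a (1.09) lie past 1, Ago3 (-1.03) lies past -1 and the other 7 members lie between.

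A blastomere had a median of 8 members above an FPKM of 1 at each stage, with a range of 3 to 10 at each, and all 10 were above 1 in 2 4-cell and 4 8-cell blastomeres. The chain of Drosha, Dgcr8, Xpo5 and Dicer1 was above 1 as a whole in 9 of 24 and 15 of 26 blastomeres, and with Ago2 added in 8 and 15. The gene-poor blastomeres had 3 or 4 members above 1 at the 4-cell and 3 to 5 at the 8-cell stage, and the other blastomeres had as few as 4 and 3, with a median of 8 at each stage. They also held the highest value of 4 of the 10 members at the 4-cell stage, which were Dicer1 (50.8), Lin28a (48.7), Tarbp2 (67.4) and Ago4 (11.5), and of 2 members at the 8-cell stage, Drosha (58.9) and Dgcr8 (23.02). The Dgcr8 value and the Drosha value of 51.5 come from the 8-cell library with 2330000 fragments, the fewest of all. Without the gene-poor blastomeres the medians of these 6 genes were 6.42 and 6.58 for Dicer1, 3.17 and 10.2 for Lin28a, 24.95 and 38.5 for Tarbp2, 2.48 and 8.53 for Ago4, 8.51 and 7.19 for Drosha, and 5.35 and 6.16 for Dgcr8. The part of gene number in the members' levels was not tested.

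Correlations across blastomeres are given only as a description, since the blastomeres share embryos and each point is a library with its own depth. Over the 45 pairs of members, Pearson's r of log2(FPKM + 1) had a median of 0.11 at both stages, with ranges of -0.31 to 0.53 at the 4-cell stage (24 blastomeres) and -0.42 to 0.47 at the 8-cell stage (26 blastomeres). Drosha and Dgcr8 had r of 0.35 and 0.29, Ago2 and Xpo5 0.32 and 0.38, and Dicer1 and Drosha -0.24 and -0.26. No rule set beforehand picked these pairs, and their like sign at both stages does not hold for all pairs. Dicer1 and Tarbp2 had r of -0.31 and 0.21, and Drosha and Tarbp2 0.36 and -0.42. With the number of genes above an FPKM of 1, Xpo5 had r of 0.71 and 0.54, Lin28a -0.06 and 0.71, and Dicer1 -0.51 and 0.45.

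For each member the 3 genes most like it were taken as those with the highest r, using the lower of both stages, among 5954 other genes that exceeded 1 in 50% or more of the blastomeres at both stages (5955 for Ago1). They were Cth, Mpdu1 and Thoc6 for Tarbp2, with r of 0.73 and 0.67 for Cth, and Gtpbp10, Tagln2 and Stx18 for Xpo5, with 0.67 and 0.71 for Gtpbp10. For Dicer1 they were Thrap3, Ubtf and Klf17, with 0.65 and 0.62 for Thrap3, and for Ago4 Kdm5c, Sertad1 and Usp5, with 0.63 and 0.60 for Kdm5c. For Drosha they were Cdk5rap3, Srp72 and Bud13, for Dgcr8 Wdr26, Hspa5 and Relch, and for Lin28a, of those reported here, Gtf3c5 and Eri1. For Ago2, of those reported here, they were Sil1 and Bcl7a, for Ago3 Polr2b, Paqr4 and Selenoi and for Ago1 0610030E20Rik, Scamp5 and Snhg16. For these 6 members the lower r was at most 0.53. No member was among the 3 genes most like another member.

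Other genes of the pathway were read from 5 lists, whose counts stand against the 45.2% (4-cell) and 41.2% (8-cell) of all listed genes that exceeded an FPKM of 1 in 50% or more of the blastomeres. Counts past a stage difference of 1 stand against 5.17% higher and 9.67% lower over all genes, or 8.72% and 14.3% among genes above 1 in 50% or more of all blastomeres, so 0 or 1 gene of a list of 7 to 11 is near those shares. Of 10 genes of the GW182 proteins, which Argonautes recruit, and of the deadenylases that shorten the target's poly(A) tail, 7 exceeded an FPKM of 1 in 50% or more of the blastomeres at each stage. The other 3, named after their values were seen, were Tnrc6b, Tnrc6c and Cnot6l at both stages. None of the 10 was past a stage difference of 1 in either direction. The deadenylase subunits Cnot8 and Cnot7 had the highest levels, with median FPKMs of 295 and 176 for Cnot8 and of 46.1 and 56.3 for Cnot7. The median stage difference of the list was 0.17.

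Of 11 processing cofactors, 10 exceeded 1 in 50% or more of the 4-cell blastomeres and 9 in 50% or more of the 8-cell blastomeres. The helicase Ddx5, a Microprocessor cofactor, had medians of 549.8 and 497 FPKM, and Ran, the GTPase that Exportin 5 needs, 472 and 492. The related helicase Ddx17 was the only gene of the list past the limit, at 5.38 and 16.2 FPKM with a difference of 1.44, and no gene was lower by 1. Of 8 genes of uridylation and turnover, which tail or degrade small RNAs and their precursors, 5 and 6 exceeded 1 in 50% or more of the 4-cell and 8-cell blastomeres, and 1 was past the limit. This was Tut4, a terminal uridylyltransferase that acts with Lin28a on let-7 precursors, with medians of 0.0121 and 3.40 FPKM and a difference of 2.12. The exonuclease Xrn2 (54.9 and 74.1) and the poly(A) polymerase Tent2 (54.6 and 72.8) had the highest levels of that list.

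All 7 genes of RISC loading exceeded 1 in 50% or more of the blastomeres at each stage. The chaperones Hsp90ab1 (690.3 and 1174 FPKM) and Hsp90aa1 (471 and 646) led the list, and the helicase Mov10, which binds Argonautes, was past the limit at 7.84 and 19.8 with a difference of 1.24. Of 16 piRNA pathway genes, which act with the PIWI relatives of the Argonautes in the germ line, 12 were listed in the 4-cell table and 14 in the 8-cell table, and 11 were listed at both. An FPKM of 1 was exceeded in 50% or more of the blastomeres by 8 of the 12 genes listed at the 4-cell stage and by 5 of the 14 listed at the 8-cell stage. Of the 11 genes listed at both stages 4 were lower by 1 or more and 1 was higher. Lower were Ddx4, a germ-line helicase, at 18.3 and 0.0108 FPKM (-4.25), Mov10l1 (-2.41), Tdrkh (-1.86) and Tdrd9 (-1.20), and Tdrd5 was higher (1.69). Over all 50 blastomeres pooled, Asz1 and Mael had the highest medians of the list, 13.6 and 11.9 FPKM. The order differed by stage, with Ddx4 (18.3) and Piwil2 (12.8) above both at the 4-cell stage, and Gtsf1 (10.8) and Piwil2 (10.6) above Mael (8.4999) at the 8-cell stage. The median stage difference was 0 for the processing cofactors, 0.30 for uridylation and turnover, 0.32 for RISC loading and -0.25 for the piRNA genes. Against these stand 0 over all genes, many of which have a median of 0 at both stages, and -0.07 among genes above 1 in 50% or more of all blastomeres.

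**Figure D5:**
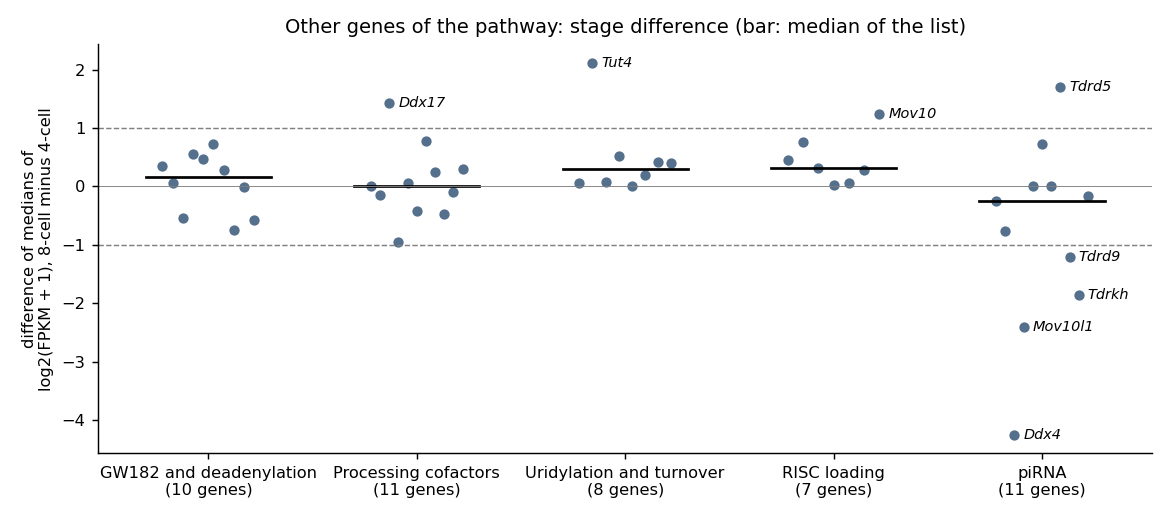
Difference of medians of log2(FPKM + 1), 8-cell minus 4-cell, for each gene of 5 pathway lists that was listed in both tables, with the list's median as a black bar and differences of 1 in either direction dashed. Tut4 (2.12), Tdrd5 (1.69), Ddx17 (1.44) and Mov10 (1.24) lie above 1, and 4 piRNA genes from Tdrd9 (-1.20) to Ddx4 (-4.25) lie below -1.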

How the data were processed

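Gene values are FPKM as deposited by the authors, who aligned paired reads of 100 bases with STAR 2.5.1b to mm10, kept uniquely aligned reads and counted them with HTSeq on Refseq genes. The gene lengths and totals behind the FPKM values are not given in the sources used here. The paper's supplement lists uniquely mapped reads per blastomere, but does not name them as those totals. None of the 50 columns of the gene tables matched a single sample by name. Each stage was therefore treated as 1 sample, and the planned test over embryos was not run. The repeat tables were not used here. The members and lists were chosen with earlier results of these data known.

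Genes were named by Entrez number from RefSeq (GRCm38.p6). Denominators were estimated from the FPKM of single fragments, and this step recovered 20 of 20 simulated libraries. Fragments of a member used its annotated exon length, or, for Ago1 and Xpo5, the length at which the smallest value is 1 fragment. The Tarbp2 length could not be checked in this way. Stage differences and shares used a threshold of 1 and a pseudocount of 1. On simulated data for 6196 genes, the stage difference recovered 100 of 100 genes raised 4-fold and 100 of 100 lowered 4-fold. The simulation took only genes with a higher mean level, with less spread between blastomeres than most members had and no added values of 0. A 4-fold change also lies well past the limit. The simulation thus does not show how differences near 1, such as those of Ago3 and Lin28a, would fare. Intervals are Clopper-Pearson over blastomeres. Coding sequences were aligned with MAFFT 7.526 and searched with BLAST 2.17.0, and computing used Python 3.11.15, pandas 2.3.3 and scipy 1.17.1. Named were the 10 members, in each pathway list the 2 genes with the highest median over all blastomeres and any past a stage difference of 1, and the 3 genes most like each member, of which 2 are not reported here. Piwil2, Gtsf1 and the cell type markers named were chosen after their values were seen. Alternatives were thresholds of 0.1 and 5, a pseudocount of 0.1, means, 2 scalings, a filter on genes, other Argonaute lengths, and leaving out gene-poor blastomeres or columns named NA.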

Additional observations from a re-analysis of the deposited data

How the results depend on the processing

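The number of members past a stage difference of 1 was 3, and it was 1, Ago4, with means in place of medians and likewise 1, Ago4, without the columns named NA. It was 2 or 3 under the other 5 alternatives, of which the filter on genes leaves out Ago1. Of all genes compared, 4.56% were higher and 6.76% lower by 1 or more with means, and 4.53% and 10.6% without the columns named NA. Under the other 5 alternatives 4.98% to 8.72% were higher and 8.87% to 14.3% were lower. The number of members above the threshold in at least 50% of the blastomeres was 9 at each stage and 9 at a threshold of 0.1, and at a threshold of 5 it was 6 for 4-cell and 8 for 8-cell blastomeres. At a threshold of 1 the share of all listed genes was 45.2% and 41.2%. That share was not computed at 0.1 and 5, so the counts of members there have no share to stand against. Ago2 was the highest Argonaute in 12 of 21 4-cell and 15 of 23 8-cell blastomeres without the gene-poor ones, and in 13 and 17 with the length of the longest curated transcript. Over the alternatives, the stage difference of Lin28a ran from 0.06 to 1.42, that of Ago3 from -1.41 to -0.77 and that of Ago4 from 1.21 to 1.95. The shallowest library limits Tarbp2 most, where an FPKM of 1 stood for 4.18 fragments. No paired analysis was possible because the column names match no sample's labels, and so give no embryo or replicate number. This limit is one of the names alone. The paper lists uniquely mapped reads for each blastomere by embryo. Whether column order and library depth could place the columns in those embryos was not tested, so no values per embryo are given.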
